A study of Danio rerio with 44 samples.

Results

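The genes described here encode the digestive enzymes of the exocrine pancreas, and they are 9 of the 25859 zebrafish genes in the count table. They were chosen by symbol from a list of 10 names, drawn up with earlier results of these data in view but with no threshold on a measured value. Of these names 8 were found as written, and ctrb1 was found as ctrb.1 through a synonym in the RefSeq gene table. The carboxypeptidase cpa5 was not matched by symbol or synonym and is not analysed here, although 2 rows carry the symbol CPA1 and RefSeq places cpa5 beside cpa1. The 9 genes are the trypsins prss1 (ENSDARG00000042993), prss59.1 (ENSDARG00000079274) and prss59.2 (ENSDARG00000073742), and the chymotrypsins ctrb.1 (ENSDARG00000090428) and ctrb.2 (ENSDARG00000093844). The others are the elastases ela2 (ENSDARG00000056744), ela2l (ENSDARG00000056765) and ela3l (ENSDARG00000007276) and the alpha-amylase amy2al2 (ENSDARG00000009443). All 9 passed the filter on low counts that left 22703 genes for testing.

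RNA was sequenced from pools of 20 whole wild-type embryos that had been kept from 24 to 96 hours post fertilization, a 72 h exposure, in 1 of 3 perfluoroalkyl substances dissolved in 0.1% DMSO. The exposed groups received FBSA, PFECHS or PFOS at 0.001, 0.1, 1 or 5 mg/L, and each compound had its own solvent control of 0.1% DMSO. PFOS, perfluorooctane sulphonate, is the legacy compound with a linear chain. PFECHS is a perfluoroethylcyclohexane sulphonate, which holds a ring, and FBSA is the sulphonamide of a shorter, perfluorobutane chain. Every group held 3 pools except FBSA at 0.1 mg/L, with 2, which gave 44 libraries in 15 groups. The labels do not say whether the pools of a group came from separate clutches or dishes. The p-values therefore measure the spread between pools and not between fish, and part of that spread may be technical. For each gene that spread was estimated over all 15 groups, so FBSA tests also draw on the PFOS and PFECHS pools.

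The exocrine pancreas is built of acinar cells, which make, store and secrete digestive enzymes. Trypsins, chymotrypsins, elastases and carboxypeptidases are secreted as inactive zymogens and are activated in the gut lumen, where trypsin activates the others, whereas amylase is secreted in active form. In the zebrafish, acinar cells fill with zymogen before the larva begins to feed, and the transcription factor Ptf1a is needed for the acinar fate and for enzyme expression.

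The libraries held 24478738 to 36533705 counts each, so that 1 count corresponded to between 0.0274 and 0.0409 CPM (the usual unit of counts relative to library total, here with TMM factors). The first principal component of all tested genes outside the lists used here held 28.9% of the variance and ran from -66.8 to 87.4. Along it the FBSA control pools lay at 48.1, 53.3 and -66.8, so pools of a single group stood far apart. The last 11 columns of the table had a larger share of counts that were not whole numbers (71.7 to 79.8%) than the first 33 (54.1 to 73.7%). They held 2 of the 3 FBSA control pools and none of the FBSA 5 mg/L pools, so table place and exposure are partly confounded there. The genes also lie beside close copies: ctrb.1 and ctrb.2, ela2 and ela2l, and prss59.1 and prss59.2 are each neighbours with 0 protein-coding genes between them in the RefSeq table of assembly GRCz12tu. Counts of such copies were estimates that were often not whole (in 41 to 44 of the 44 libraries for these 6 genes), so the split of reads within a pair is uncertain.

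In embryos held in FBSA at 5 mg/L, most of the pancreatic enzyme genes had lower transcript levels than in the FBSA solvent controls. Of the 9 genes 6 fell (edgeR quasi-likelihood test, Benjamini-Hochberg adjusted p under 0.05): ctrb.2, ela2, ela2l, ela3l, prss59.1 and amy2al2. Over all genes tested, 5.44% were called lower in this comparison and 11.2% in either direction. The median log2 fold change was -2.66 over the 9 genes and -0.01 over all genes tested. Each of the 9 had an unadjusted p under 0.05, as had 6371 of the 22703 genes tested, 3235 of them lower. For 5 of the 9 every exposed pool lay below every control pool, a separation seen in 9.27% of all genes tested. In bulk RNA from whole embryos, fewer acinar cells and less enzyme RNA per cell cannot be told apart. The call depended on single pools, since the count was 0 without FBSA 5 mg/L replicate 3 and 0 without FBSA control replicate 2. It was also 0 when only the FBSA libraries entered the fit, in which the estimate of spread is not shared with the PFOS and PFECHS groups. Calls over all genes fell from 2550 in the main fit to 0 with only the FBSA libraries. They were also far below 2550 without FBSA 5 mg/L replicate 3 and without FBSA control replicate 2. The loss of calls was therefore not confined to the enzymes.

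**Figure D1:**
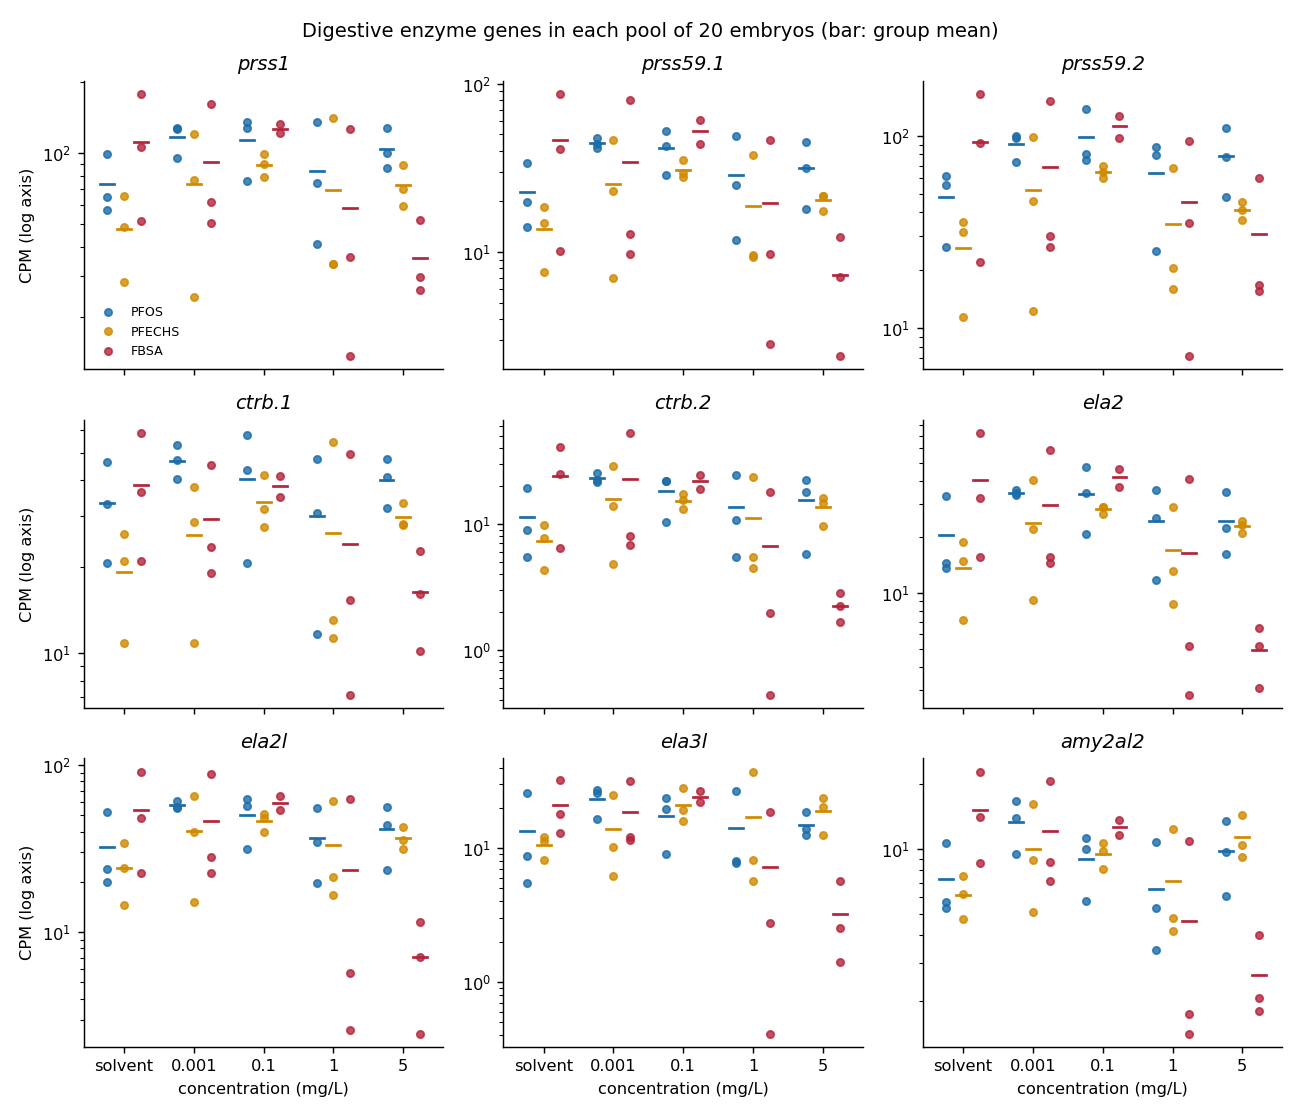
Level of each of the 9 enzyme genes (CPM, logarithmic axis, scaled separately in each panel) in every pool against concentration (mg/L, with the solvent control at the left), with PFOS in blue, PFECHS in ochre and FBSA in red. Points are pools of 20 embryos and bars are group means, and the red points at 5 mg/L form the lowest group mean in every panel except that of prss59.2, where the PFECHS control mean is lower.

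Trypsins gave the largest share of the reads of the enzyme set. prss1, which encodes a trypsinogen, stood at 29.7, 51.9 and 26.2 CPM in the FBSA 5 mg/L pools, against 106, 178 and 51.5 CPM in the FBSA controls. Exposed replicate 2 lay above control replicate 3 by less than 1 CPM, so the groups overlapped, and the log2 fold change of -1.64 ± 0.61 (SE) did not pass the test (adjusted p = 0.0759). prss59.1, a trypsin-family protease from a tandem array, stood at 7.15, 12.2 and 2.40 CPM in the exposed pools, against 41.1, 86.7 and 10.2 CPM in the controls. It fell by 2.66 ± 0.84 on the log2 scale (adjusted p = 0.0377), although exposed replicate 2 was higher than control replicate 3. Its neighbour prss59.2 stood at 15.7, 60.18 and 16.7 CPM in the exposed pools, against 91.4, 165 and 22.2 CPM in the controls. Here exposed replicate 2 was well above control replicate 3, and the log2 fold change of -1.59 ± 0.77 was not called (adjusted p = 0.172). Over fits that each left out 1 pool of these groups, the log2 fold change of prss59.2 ran from -2.52 without exposed replicate 2, the only 1 of the 6 fits that called it (adjusted p = 0.0421), to -0.88 without control replicate 2 (adjusted p = 0.627).

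Of the 2 listed chymotrypsin copies, whose products cleave after large hydrophobic residues, 1 fell and 1 was not called. ctrb.2 stood at 2.84, 2.24 and 1.66 CPM in the FBSA 5 mg/L pools, against 25.0, 40.8 and 6.44 CPM in the controls. Its groups did not overlap, and it fell by 3.42 ± 0.93 on the log2 scale, the most of the 9 genes (adjusted p = 0.0182). ctrb.1 stood at 10.2, 22.7 and 16.1 CPM in the exposed pools, against 36.5, 58.6 and 20.9 CPM in the controls. Its groups overlapped by 1 pool, and the log2 fold change of -1.24 ± 0.59 was the smallest of the 9 and was not called (adjusted p = 0.16). The difference between ctrb.1 and ctrb.2 was not tested. Chymotrypsin rows outside the 9 were not called. ctrb.3, which lies beside ctrb.2 with 0 protein-coding genes between them, stood at 9.53 to 21.7 CPM, against 7.27 to 51.8 CPM in the controls. Its log2 fold change was -1.05 ± 0.87 (adjusted p = 0.45), and that of ctrl was -1.42 ± 0.61 (adjusted p = 0.119).

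All 3 listed genes of the elastase family of serine proteases fell without overlap between exposed and control pools. ela2 stood at 6.48, 5.18 and 3.07 CPM in the FBSA 5 mg/L pools, against 32.5, 72.4 and 15.6 CPM in the controls. It fell by 3.03 ± 0.73 log2 units (adjusted p = 0.00879). ela2l stood at 11.6, 7.15 and 2.47 CPM in the exposed pools, against 47.9, 91.4 and 22.5 CPM in the controls. It fell by 2.93 ± 0.78 (adjusted p = 0.0162). The exposed pools of both genes lay in the same order, with replicate 1 highest and replicate 3 lowest. ela3l stood at 5.71, 1.42 and 2.51 CPM in the exposed pools, against 18.1, 32.2 and 13.0 CPM in the controls, and fell by 2.72 ± 0.82 (adjusted p = 0.0301).

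The starch-digesting amylase amy2al2 stood at 4.02, 1.79 and 2.05 CPM in the FBSA 5 mg/L pools, against 14.1, 22.8 and 8.64 CPM in the controls. All exposed pools were lower than all controls, and it fell by 2.54 ± 0.60 log2 units, with the smallest adjusted p of the 9 genes (0.00767). Across the leave-one-out fits its log2 fold change ran from -2.99 to -2.12. Its adjusted p ran from 0.00608 to 0.1, above the threshold without FBSA 5 mg/L replicate 3 and without FBSA control replicate 2.

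At 1 mg/L the FBSA pools differed widely among themselves. Summed over the 9 genes they stood at 114, 38.4 and 467 CPM, against 413, 748 and 171 CPM in the controls. Replicates 1 and 2 were lower than every FBSA control, and replicate 3 was higher than 2 of the 3. amy2al2 was at 1.74, 1.41 and 10.9 CPM, against 14.1, 22.8 and 8.64 CPM in the controls. ctrb.2 was at 1.97, 0.44 and 17.8 CPM, against 25.0, 40.8 and 6.44 CPM in the controls. ela3l was at 2.77, 0.41 and 18.5 CPM, against 18.1, 32.2 and 13.0 CPM in the controls. In each of these the lowest value of all 44 pools was that of FBSA 1 mg/L replicate 2, as it was for ctrb.1, ela2, prss1 and prss59.2, while FBSA 5 mg/L replicate 3 was lowest for ela2l and prss59.1.

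None of the 9 genes was called at FBSA 1 mg/L by edgeR, nor was any gene in the table (0%, with 1499 genes at an unadjusted p under 0.05, among them amy2al2 and ctrb.2), and DESeq2 called none of the 9. The fold changes of all 9 were below 0, with a median of -1.22 and a range of -1.83 to -0.68 on the log2 scale. amy2al2 had -1.69 ± 0.57 (adjusted p = 0.5). Without FBSA 1 mg/L replicate 3, 4 of the 9 were called lower, where 89 of all genes were called in either direction. The comparisons at 1 and 5 mg/L use the same 3 control pools.

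At the lower FBSA concentrations the fold changes were nearer to 0. At 0.1 mg/L both pools were high in summed CPM (521 and 459), inside the range of the controls, and the 9 log2 fold changes had a median of 0.14 and ran from -0.27 to 0.27. At 0.001 mg/L replicate 1 stood at 690.1 CPM and replicates 2 and 3 at 201 and 168 CPM, so a single group spanned nearly the whole range of the FBSA controls. The 9 log2 fold changes there had a median of -0.32 and ran from -0.45 to -0.10. edgeR and DESeq2 called 0 of the 9 at either concentration, where 0% of all genes were called by edgeR and 731 genes at 0.1 mg/L and 259 at 0.001 mg/L had an unadjusted p under 0.05.

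Neither PFECHS nor PFOS lowered the enzymes at any concentration by the test, and most fold changes were above 0 without being called. At PFECHS 5 mg/L the summed level was 238, 259 and 305 CPM, against 228, 180.0 and 97.1 CPM in the PFECHS controls. The 9 log2 fold changes had a median of 0.66 and ran from 0.57 to 0.90, with standard errors of 0.57 to 0.85 and adjusted p-values from 0.744 to 0.89. For 5 genes (ctrb.1, ela2, ela3l, prss59.2 and amy2al2) every exposed pool lay above every control pool, against 11.4% of all genes tested. At PFECHS 0.1 mg/L this held for all 9 genes, against 9.14% of all genes tested. ela2 showed the pattern with 29.1, 28.9 and 26.6 CPM at PFECHS 0.1 mg/L, against 18.7, 14.9 and 7.13 CPM in the PFECHS controls. The median log2 fold change of the 9 was 1.01 there, with a range of 0.63 to 1.32, and the smallest adjusted p was 0.853. At PFECHS 0.001 and 1 mg/L the medians were 0.73 and 0.45, and none of the 9 separated the pools.

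At PFOS 5 mg/L the summed level was 363, 471 and 248 CPM, against 224, 179 and 382 CPM in the PFOS controls. The ranges overlapped for each of the 9 genes, and the log2 fold changes had a median of 0.43 and ran from 0.17 to 0.72 with standard errors of 0.56 to 0.83. edgeR called 0.0132% of all genes in that comparison and none of the 9. At PFOS 0.001 mg/L the median was 0.84, and 5 genes (ctrb.2, ela2, ela2l, prss59.1 and prss59.2) had every exposed pool above every control, against 16.4% of all genes tested. At 0.1 mg/L the median was 0.64 and only prss59.2 separated the pools (15.0% of all genes tested), with 138, 75.2 and 80.9 CPM at PFOS 0.1 mg/L, against 55.5, 26.4 and 61.6 CPM in the PFOS controls. At 1 mg/L the median was 0.19. edgeR called 0 of the 9 at any PFOS or PFECHS concentration, as did DESeq2. Over all genes tested edgeR called 0.0176% at PFOS 0.1 mg/L, 0.00881% at PFOS 1 mg/L and 0% at PFOS 0.001 mg/L and at all 4 PFECHS concentrations, and the unadjusted p was under 0.05 for none of the 9 in any of them.

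**Figure D2:**
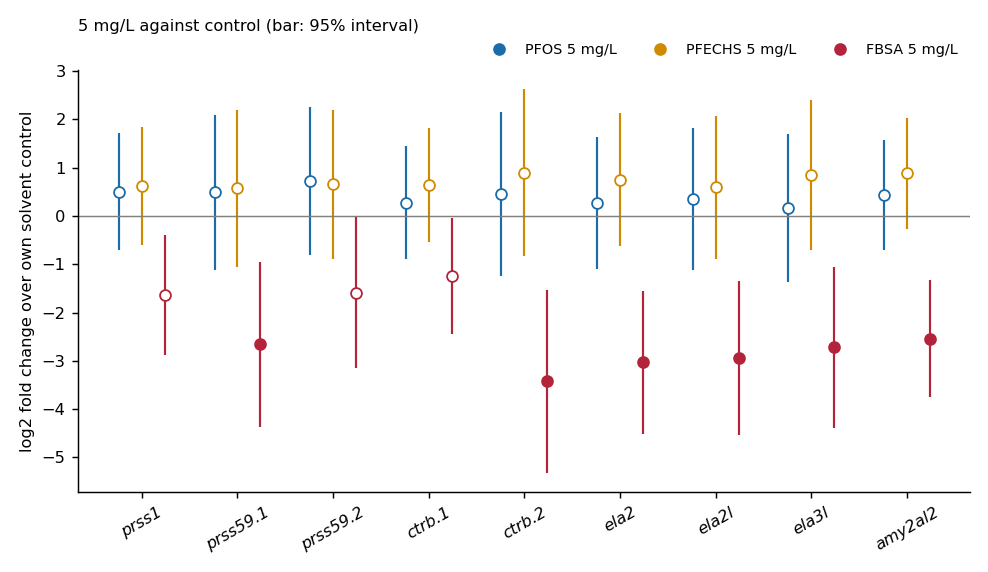
Log2 fold change of each gene at 5 mg/L over the same compound's solvent control, for PFOS (blue), PFECHS (ochre) and FBSA (red), with 95% intervals as bars and filled points where the adjusted p was under 0.05. The 6 filled points are FBSA values between -3.42 and -2.54, while the PFOS and PFECHS points lie between 0.17 and 0.90 with intervals that include 0.

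The responses to the 3 compounds were compared at matched concentrations as differences between their fold changes over their own controls. At 5 mg/L FBSA was below PFECHS in 5 of the 9 genes, where 4.81% of all genes were called lower and 9.17% in either direction. amy2al2 differed by -3.42 ± 0.82 (SE, log2 units; adjusted p = 0.0116), ela2 by -3.78 ± 0.99 (0.0182) and ctrb.2 by -4.32 ± 1.25 (0.029) by edgeR. ela2l differed by -3.53 ± 1.06 (adjusted p = 0.0336) and ela3l by -3.57 ± 1.11 (0.0396). The other differences between FBSA and PFECHS ran from -3.23 for prss59.1 (adjusted p = 0.0685) to -1.88 for ctrb.1 (0.136). FBSA was below PFOS in 2 of the 9, ela2 by -3.29 ± 0.98 (adjusted p = 0.0461) and amy2al2 by -2.97 ± 0.82 (0.0345), where 2.30% of all genes were called lower and 4.92% in either direction. The other differences between FBSA and PFOS at 5 mg/L ran from -3.87 for ctrb.2 (adjusted p = 0.0584) to -1.52 for ctrb.1 (0.252). In level, ela2 was at 6.48, 5.18 and 3.07 CPM in FBSA 5 mg/L pools, 24.3, 20.9 and 23.1 CPM in PFECHS 5 mg/L pools and 22.2, 34.6 and 16.2 CPM in PFOS 5 mg/L pools. Both counts were 0 without FBSA 5 mg/L replicate 3 or FBSA control replicate 2. Against PFECHS, fewer of all genes were also called in those fits than the 9.17% of the main fit. The count against PFECHS was 2 without PFECHS 5 mg/L replicate 2 or 3 or PFECHS control replicate 2 or 3. The count against PFOS was 0 without any 1 of PFOS 5 mg/L replicates 1, 2 and 3 and PFOS control replicates 1 and 2. It was 6 without FBSA 5 mg/L replicate 2 and 5 without FBSA control replicate 3. Calls over all genes in these fits against PFOS are not given here, so the counts cannot be weighed against them.

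The ring-holding PFECHS and the linear PFOS gave no called difference in any of the 9 genes at 5 mg/L, where edgeR called 0% of all genes and 241 had an unadjusted p under 0.05. The differences ran from -0.06 for prss59.2 to 0.67 for ela3l on the log2 scale. Their 95% intervals reached from -2.24 to 2.85, so differences of several fold in either direction could not be told from 0. At 1, 0.1 and 0.001 mg/L 0 of the 9 were called between any pair of compounds, and edgeR called 0% of all genes in each of those comparisons. At 1 mg/L the FBSA fold changes were below those of PFECHS by a median of -1.63 and below those of PFOS by -1.54, with adjusted p-values of 0.624 or more.

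The solvent controls alone spread widely, and the FBSA controls had the highest means without a call against the others. Over the 9 control pools the highest value of a gene was between 4.8 (amy2al2) and 14.5 (prss59.2) times the lowest. The median was 64.7 CPM for prss1, in a range of 28.3 to 178 CPM. For amy2al2 it was 7.51 CPM, in a range of 4.74 to 22.8 CPM. FBSA control replicate 2 was the highest control pool for all 9 genes, and PFECHS control replicate 3 was the lowest for all but ela3l, for which it was PFOS control replicate 1. The FBSA controls were above the PFECHS controls by a median of 1.3 on the log2 scale over the 9 genes (range 1.01 to 1.83). Of the 9, 5 reached an unadjusted p under 0.05 and none was called (smallest adjusted p = 0.158 by edgeR). Over all genes edgeR called 0%, but before adjustment 5185 of 22703 lay under 0.05. The FBSA controls were above the PFOS controls by a median of 0.96 (range 0.22 to 1.1, none of the 9 called). There edgeR called 0.150% of all genes, and before adjustment 4157 lay under 0.05. DESeq2 called more of all genes, 1317 against the PFECHS controls and 597 against the PFOS controls, with 0 of the 9 in each. The FBSA controls thus differed from the others in more than the enzymes, and they are the baseline of every FBSA fold change. The median difference of the PFECHS controls from the PFOS controls was -0.63, with none called (0% of all genes).

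Set against controls of the other compounds, the FBSA 5 mg/L pools were lower for some enzymes and overlapped for others. ctrb.2 was at 2.84 CPM or less in FBSA 5 mg/L pools, while the lowest of the 9 control pools stood at 4.27 CPM. ela2 was at 6.48 CPM or less, while the lowest control pool stood at 7.13 CPM. The same held for ela2l, at 11.6 CPM or less against 14.6 CPM in the lowest control pool, and for amy2al2, at 4.02 CPM or less against 4.74 CPM. Over all genes tested, 2.13% had every FBSA 5 mg/L pool below all 9 control pools. For ela3l the highest FBSA 5 mg/L pool (5.71 CPM) was above the lowest control pool (5.48 CPM). For prss1, prss59.1, prss59.2 and ctrb.1, too, the ranges overlapped once the controls of all 3 compounds were included.

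Ordered by the group mean of summed CPM over the 9 genes, the 15 groups ran from 110.0 CPM at FBSA 5 mg/L to 490.0 CPM at FBSA 0.1 mg/L. After FBSA 5 mg/L came the PFECHS control (168 CPM), FBSA 1 mg/L (206 CPM), PFECHS 1 mg/L (235 CPM), the PFOS control (262 CPM) and PFECHS 5 mg/L (267 CPM). The middle was held by PFECHS 0.001 mg/L (281 CPM), PFOS 1 mg/L (301 CPM), PFECHS 0.1 mg/L (339 CPM), FBSA 0.001 mg/L (353 CPM) and PFOS 5 mg/L (361 CPM). Below FBSA 0.1 mg/L at the top were PFOS 0.1 mg/L (422 CPM), the FBSA control (444 CPM) and PFOS 0.001 mg/L (450.0 CPM). The pool ranges of every pair of neighbours in this order overlapped. The widest groups were the FBSA control (171 to 748 CPM), FBSA 0.001 mg/L (168 to 690.1 CPM) and FBSA 1 mg/L (38.4 to 467 CPM).

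Within groups the enzymes varied more than most genes. After centring on group means, the standard deviation of log2 CPM was between 0.72 (amy2al2) and 1.14 (ctrb.2), against a median of 0.31 over all genes tested. For ctrb.2, 1.93% of tested genes had a larger spread, and for amy2al2 13.4% did. The median enzyme had a within-group standard deviation of 1.41 in the FBSA groups, 0.81 in the PFECHS groups and 0.65 in the PFOS groups. The median of all genes had 0.39, 0.25 and 0.26 in the same groups. The test shared 1 estimate of spread per gene across all groups. Because the FBSA pools spread more, standard errors and p-values for FBSA may be too small. The 9 genes varied together: over the 44 libraries, centred on group means, the 36 pairwise Pearson correlations ran from 0.66 to 0.97 with a median of 0.89. These are descriptions, as the genes share library and embryos, and neighbouring copies may share reads.

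The summed enzyme level also moved with the main axis of variation between pools. Pearson's r was 0.72 and Spearman's rho 0.69 between the mean centred log2 CPM of the 9 genes and the centred axis position over 44 libraries. The FBSA 5 mg/L pools lay at -65.0, 32.1 and -65.0 on the axis, and the FBSA controls at 48.1, 53.3 and -66.8. Exposed replicate 2 (165 CPM, axis 32.1) and FBSA 1 mg/L replicate 1 (114 CPM, axis 38.4) lay below the 14 pools outside FBSA 1 and 5 mg/L with an axis position over 20, which held 248 to 748 CPM. FBSA 5 mg/L replicates 1 and 3 (93.3 and 73.1 CPM) and FBSA 1 mg/L replicate 2 (38.4 CPM) likewise lay below the 6 pools outside these groups under -45, which held 94.9 to 201 CPM. The remaining pool, FBSA 1 mg/L replicate 3 (467 CPM, axis 20.6), lay inside the range of the 14 pools. Both limits were set after seeing the values. With the axis as a term in the fit, 5 of the 9 genes were called lower at FBSA 5 mg/L, and every fold change was nearer to 0. Over all genes tested, more were called in either direction with this term than the 2550 of the main fit. The log2 fold changes of the 5 called were then -2.12 for ctrb.2, -2.05 for ela2, -2.0 for ela2l, -1.91 for amy2al2 and -1.44 for prss59.1. ela3l lost its call (-1.95, adjusted p = 0.0579), and the uncalled genes stood at -0.89 for prss1, -0.61 for ctrb.1 and -0.52 for prss59.2. With table place as a term 5 were called, where fewer of all genes were called than in the main fit. A fit without the last 11 libraries leaves 1 FBSA control pool, so its count at FBSA 5 mg/L is not given. These 3 settings were added once the data had been seen.

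**Figure D3:**
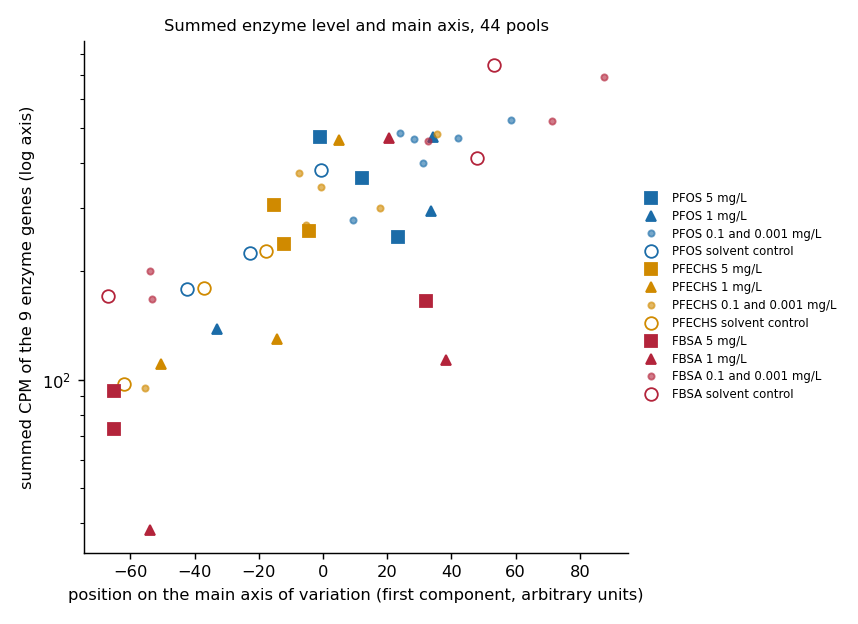
Summed level of the 9 enzyme genes (CPM, logarithmic axis) against the position of each of the 44 pools on the first principal component of genes outside the lists (arbitrary units). Filled red squares and triangles are FBSA at 5 and 1 mg/L, and open circles are solvent controls. Of these 6 FBSA pools, 5 lie below the pools of other groups over 20 or under -45 on the axis. Both limits were set after seeing the values.

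Other products of acinar cells were taken as a list of related enzymes, inhibitors and granule proteins. Of 27 such genes tested 4 fell and none rose at FBSA 5 mg/L (5.44% of all genes called lower, 5.79% higher), 23 had a fold change below 0 and the median was -1.3. Those that fell were the amylase amy2a, the granule protein SYCN (ENSDARG00000090899, syncollin), the carboxypeptidase CPA1 (ENSDARG00000030915) and the bile-salt-activated lipase CEL (ENSDARG00000029822). amy2a stood at 3.20, 2.42 and 1.2 CPM in FBSA 5 mg/L pools, against 8.93, 16.4 and 5.50 CPM in the controls, and fell by 2.18 ± 0.57 on the log2 scale (adjusted p = 0.0141). SYCN (ENSDARG00000090899) stood at 0.52, 0.61 and 0.04 CPM, against 2.86, 6.19 and 1.1 CPM in the controls, and fell by 3.11 ± 0.96 (adjusted p = 0.0339). Its value in exposed replicate 3 was near the floor, as 1 count there was 0.0355 CPM. The SYCN row ENSDARG00000103687, at 1.16 to 4.69 CPM against 3.72 to 13.3 CPM in the controls, was not called (-1.52 ± 0.62, adjusted p = 0.1045). CPA1 (ENSDARG00000030915) stood at 1.58, 1.36 and 1.91 CPM, against 4.68, 8.39 and 3.03 CPM in the controls, and fell by 1.73 ± 0.54 (adjusted p = 0.0346). The other row of that symbol, ENSDARG00000021339, stood at 20.3, 46.6 and 21.4 CPM, against 64.8, 130.5 and 38.9 CPM in the controls, and was not called (-1.41 ± 0.53, adjusted p = 0.0763). Some copies did not share the direction: amy2al1, another amylase gene, had a log2 fold change of 0.58 ± 0.31 (adjusted p = 0.214), with 2.14 to 2.93 CPM in FBSA 5 mg/L pools and 1.4 to 1.92 CPM in the controls. The other rows above 0 were not called either. They were prss59 (ENSDARG00000076602, 0.42 ± 0.20, adjusted p = 0.176), cela1.4 (0.13 ± 0.48, 0.888) and prss60.3 (1.59 ± 1.39, 0.48). prss60.3 was at 0.33 CPM or less in those pools. At PFECHS and PFOS 5 mg/L the list had a median of 0.46 in each case and no call.

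Factors that act upstream of the enzymes were mostly not called at FBSA 5 mg/L. PTF1A, the acinar transcription factor, stood at 2.87, 1.33 and 2.44 CPM in exposed pools, against 1.79, 2.23 and 3.41 CPM in the controls, with a log2 fold change of -0.17 ± 0.34 (adjusted p = 0.789). PTF1A also acts in the embryonic hindbrain and retina, so whole-embryo RNA does not isolate its acinar level. NR5A2, a nuclear receptor of acinar and liver cells, stood at 3.98, 7.78 and 5.37 CPM, against 5.83, 6.62 and 3.33 CPM in the controls (0.12 ± 0.30, adjusted p = 0.832). Of 15 regulators and receptors tested 1 fell, a share near the 5.44% of all genes called lower. It was the cholecystokinin receptor CCKAR, at 0.15, 0.24 and 0.11 CPM in exposed pools, against 0.64, 1.03 and 0.33 CPM in the controls (-1.97 ± 0.63, adjusted p = 0.0384). CCKAR was low throughout, with at most 36.1 counts in any of the 44 pools. The median of these 15 was -0.17. XBP1, a regulator of the secretory pathway, had 0.25 ± 0.10 (adjusted p = 0.0802), and gata4, an endoderm transcription factor, had -1.24 ± 0.58 (adjusted p = 0.16). The acinar factors RBPJL and BHLHA15 were too low to test, with 0 counts in 13 and 17 of the 44 pools and at most 13 and 7 counts in a pool.

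Genes of protein folding and secretion, which acinar cells use heavily and other cells share, held 5 genes that fell and 1 that rose among 29 tested, with a median of -0.08 (5.44% of all genes called lower, 5.79% higher). HSPA5, the main chaperone of the endoplasmic reticulum, stood at 197, 250.1 and 155 CPM in FBSA 5 mg/L pools, against 301, 354.5 and 269.7 CPM in the controls (-0.62 ± 0.13, adjusted p = 0.00428). HSP90B1, a second chaperone, had -0.85 ± 0.20 (adjusted p = 0.00741), and the disulphide isomerase PDIA6 had -0.64 ± 0.18 (adjusted p = 0.0205). These 3 had the smallest p of the list.

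Markers of other digestive organs also had medians below 0 at FBSA 5 mg/L, and their part in the result was not tested. Of 24 enterocyte genes 10 fell and none rose, with a median log2 fold change of -1.95 (5.44% of all genes called lower, 5.79% higher). Their summed level was 165 to 383 CPM in exposed pools and 322 to 1160 CPM in the controls, and of the 2 rows for MEP1B, a brush-border protease, ENSDARG00000037533 was at 0 in every FBSA 5 mg/L pool, against 0.21, 0.09 and 0 CPM in the controls. The other row, ENSDARG00000040683, stood at 3.02, 0.67 and 0.53 CPM, against 10.3, 3.27 and 3.80 CPM in the controls. RBP2, an intestinal retinol-binding protein, stood at 35.7, 20.1 and 12 CPM, against 62.2, 65.1 and 49.7 CPM in the controls (-1.39 ± 0.33, adjusted p = 0.00832). The apolipoprotein genes apoa4b.2 (-2.81 ± 0.71, adjusted p = 0.0117) and apoa4b.3 (-3.19 ± 0.81, adjusted p = 0.0124) fell as well. Of 18 hepatocyte genes 1 fell, a share near the 5.44% of all genes called lower. It was the plasma protein gene fetub (-2.01 ± 0.67, adjusted p = 0.048), and the median of the 18 was -0.97. The summed hepatocyte level was 371 to 1060 CPM in exposed pools and 385 to 1650 CPM in the controls, with no marker at 0 in all pools of either group. serpina1 had -1.87 ± 0.80 (adjusted p = 0.119) and tfa, the transferrin gene, -1.47 ± 0.74 (adjusted p = 0.188).

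The endocrine pancreas, which makes hormones in islets beside the acinar tissue, had more genes above its controls than below at FBSA 5 mg/L. Of 20 endocrine genes tested 1 fell and 2 rose, near the shares over all genes (5.44% called lower, 5.79% higher), and the median was 0.51. NKX2-2, an islet and neural transcription factor, stood at 22.4, 16.5 and 27.9 CPM in exposed pools, against 12.8, 10.7 and 12.8 CPM in the controls, and rose by 0.88 ± 0.16 on the log2 scale (adjusted p = 0.00136). The somatostatin gene sst1.2 rose by 1.15 ± 0.39 (adjusted p = 0.0499), and the prohormone convertase gene PCSK2 fell by 0.63 ± 0.20 (adjusted p = 0.0421). The summed endocrine level was 974 to 1430 CPM in exposed pools and 759 to 1170 CPM in the controls. A short mixed list of 5 goblet-cell and secretory genes had no call at FBSA 5 mg/L and a median of -0.46, with AGR2 at -0.77 ± 0.60 (adjusted p = 0.415), muc5.1 at -0.46 ± 0.57 (adjusted p = 0.639) and GCNT3 at -0.74 ± 0.63 (adjusted p = 0.463).

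**Figure D4:**
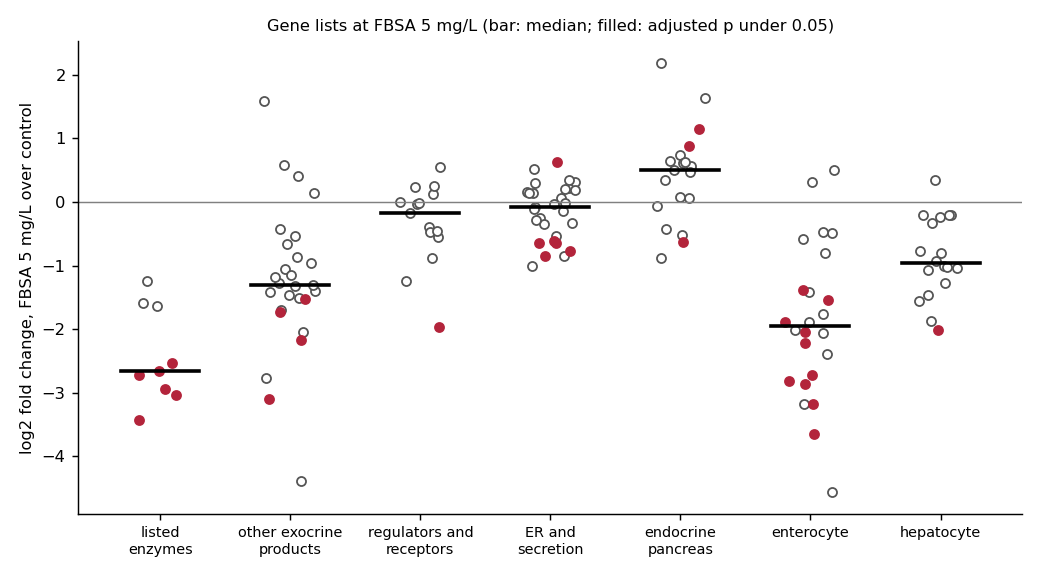
Log2 fold change at FBSA 5 mg/L over the FBSA control for each tested gene of the 9 listed enzymes and of 6 other gene lists, with filled points at an adjusted p under 0.05 and bars at list medians. The medians are -2.66 for the listed enzymes, -1.3 for other exocrine products, -1.95 for enterocyte, -0.97 for hepatocyte and 0.51 for endocrine pancreas genes.

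Across all 44 libraries, centred on group means, the mean of the 9 enzymes was most alike in pattern to other acinar products. The 10 genes outside the 9 with the highest Pearson correlation, among named genes whose log2 CPM averaged 1 or more, had r from 0.927 to 0.962. They were SYCN (ENSDARG00000103687, 0.962), the chymotrypsin-like ctrl (0.951), CEL (ENSDARG00000017490, 0.949), the pancreatic disulphide isomerase pdia2 (0.947), si:dkey-14d8.6 (0.943), the fatty-acid-binding FABP1 (ENSDARG00000059227, 0.942), the carboxypeptidase CPB1 (0.938), CELA1 (ENSDARG00000017314, 0.937), amy2a (0.935) and zgc:153968 (0.927). Of these, 6 belong to the list of other exocrine products. By list means over the same libraries, r was 0.89 for other exocrine products, 0.85 for enterocyte genes, 0.85 for hepatocyte genes, 0.83 for the regulators, 0.70 for the short mixed list, 0.68 for folding and secretion genes and -0.01 for endocrine genes. The lists share libraries and depth, so these values describe the pools and carry no p.

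The share of enzyme reads that came from each class was steadier than the total. These shares are of reads, not of molecules, as transcript lengths were not used. They cover the 9 listed genes only, so elastases outside the 9, such as CELA1, are not counted. Trypsins took 46.0 to 64.9%, elastases 17.8 to 33.0%, chymotrypsins 11.1 to 17.2% and amylase 1.8 to 5.4% of the summed CPM in the 38 pools outside FBSA 1 and 5 mg/L, while the sum itself ran from 94.9 to 748 CPM. At FBSA 5 mg/L elastases took 25.5, 8.3 and 11%, against 23.9, 26.2 and 29.9% in the FBSA controls. At FBSA 1 mg/L they took 12, 15 and 26.2%. The pools under 17.8% were therefore FBSA 1 mg/L replicates 1 and 2 and FBSA 5 mg/L replicates 2 and 3, whereas FBSA 5 mg/L replicate 1, also low in its sum, kept a share inside the range of the other pools. Trypsins took 56.3, 75.4 and 62.0% at FBSA 5 mg/L, against 57.8, 57.4 and 49.1% in the FBSA controls.

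**Figure D5:**
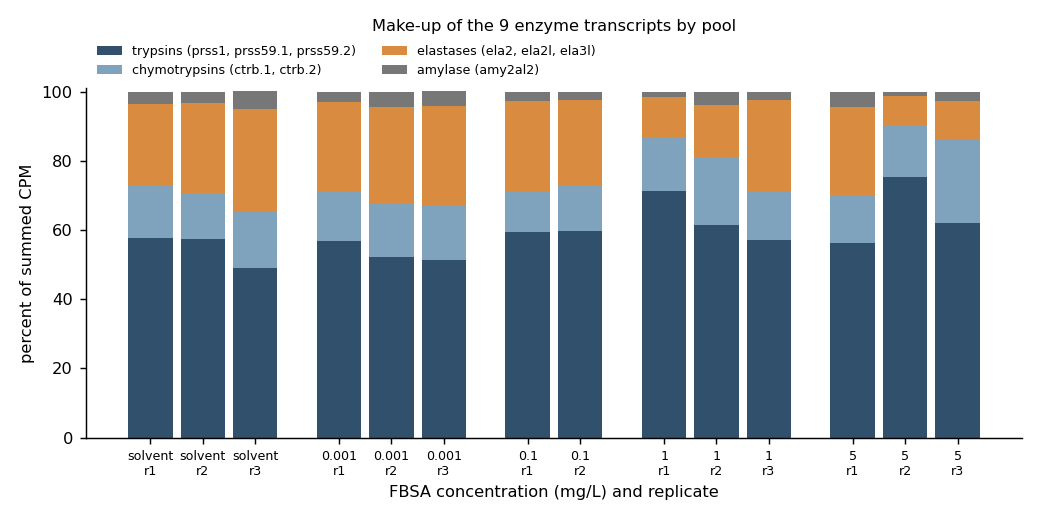
Share (percent) of the summed CPM of the 9 enzyme genes taken by trypsins, chymotrypsins, elastases and amylase in each FBSA pool, by concentration (mg/L, solvent control at the left) and replicate (r1 to r3). The elastase share is 8.3 to 15% in FBSA 1 mg/L replicates 1 and 2 and FBSA 5 mg/L replicates 2 and 3 and 23.9% or more in the other FBSA pools.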

How the data were processed

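Transcript levels were taken from a table with a column per library. The authors deposited estimated counts of reads per gene (expected counts), judged from the values: none is negative, and in each library 54.1 to 79.8% have decimals. Per the submitters' processing notes, FastQC, MultiQC and Trimmomatic were used on the reads. The counting program is not given in the sources used here, nor is the build, and no coordinates or sequences are printed. Columns were matched to samples by group and replicate number, with 0 columns unmatched, and 4 rows that name no gene were removed.

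Counts were rounded and filtered with filterByExpr, leaving 22703 genes. A single edgeR 4.0.16 fit (R 4.3.3, TMM, quasi-likelihood) of 15 group means over 44 libraries, with 29 residual degrees of freedom, gave 12 contrasts of exposed against own control, 12 differences between compounds and 3 between controls. P-values were Benjamini-Hochberg adjusted over all genes, with a threshold of 0.05. Log2 CPM used a prior count of 2. DESeq2 1.42.0, its size factors, no filter, fewer libraries, a replicate block and leaving out each library in turn were alternatives. The calculation was tested on simulated data in which each gene had the same spread in all groups. The wider spread of the FBSA pools was therefore not tested.

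The 9 genes and all lists were chosen with earlier results of these data known. Named from other lists were the 3 genes with the smallest p at FBSA 5 mg/L, and ptf1a, rbpjl, bhlha15, nr5a2 and both CPA1 rows. Both CEL rows, amy2al1, the other exocrine rows above 0, the second SYCN row and the chymotrypsins and elastases outside the 9 were added after their values were seen. Likeness used the 9 genes found in place of the 10 listed.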

Additional observations from a re-analysis of the deposited data

Results flagged for a closer look

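The response to FBSA at 5 mg/L differed from that to another compound at the same concentration in 7 tests of single enzyme genes (edgeR test of the difference between fold changes over own controls, Benjamini-Hochberg over 22703 genes, 3 pools per group). Over all genes tested, 4.81% were called lower against PFECHS (9.17% in either direction) and 2.30% against PFOS (4.92% in either direction). Relative to PFECHS, the difference in log2 fold change was -4.32 ± 1.25 (SE) for ctrb.2, -3.78 ± 0.99 for ela2, -3.57 ± 1.11 for ela3l, -3.53 ± 1.06 for ela2l and -3.42 ± 0.82 for amy2al2. Relative to PFOS it was -3.29 ± 0.98 for ela2 and -2.97 ± 0.82 for amy2al2. All of these use the same FBSA pools, and the FBSA controls were themselves higher than the PFECHS controls by a median of 1.3 on the log2 scale and higher than the PFOS controls by 0.96, which enters each difference. The part of that gap in the differences was not tested.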

How the results depend on the processing

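Of 27 counts of enzyme genes called, 23 were 0 in every setting tried. At FBSA 5 mg/L the count of 6 was 0 with only the FBSA libraries, where 0 of all genes were called. It was 0 to 7 when a library was left out. At FBSA 1 mg/L leaving out a library gave 0 to 4, with 89 of all genes called in the fit that gave 4. For FBSA against PFECHS at 5 mg/L the count of 5 was 2 with only those compounds and 2 with the main axis as a term. It was 3 with table place and 0 to 7 leaving out a library. Over all genes, 2081 were called in the main fit, and fewer with only those compounds or with table place. With the main axis as a term more of all genes were called than in the main fit, while fewer enzymes were. The fit without the last 11 libraries leaves 1 FBSA control pool, so its count is not given here either. For FBSA against PFOS, calls over all genes in these settings are not given here, so the enzyme counts cannot be weighed against them. The count of 2 against PFOS was 5 by DESeq2 and 0 to 6 leaving out a library. The same count was 0 with only those compounds, with the main axis or with table place. With replicate number as a block it was 1; the block moved no other count by over 1.5 times, and the numbers share only a label, since 14 of 35 same-numbered pairs correlated above 0.1 (range -0.41 to 0.61).

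Single-gene fold changes were recomputed for the 6 comparisons at 5 mg/L, not for the lower concentrations or between controls. Of these values under alternatives, 779 kept direction and side of the threshold, 83 lost and 23 gained a call and 33 turned direction, all 33 among uncalled values of PFOS or PFECHS. At PFOS 5 mg/L the main-axis term gave -0.09 for ctrb.1, -0.06 for ctrb.2, -0.14 for ela2, -0.03 for ela2l, -0.15 for ela3l and -0.08 for prss59.1, and leaving out a library gave -0.07 to 0.80 for ela2 and -0.20 to 1.07 for ela3l. For PFECHS against PFOS at 5 mg/L the axis term gave 0.01 for prss59.2, and dropping the last 11 libraries gave -0.08 for ctrb.2, -0.15 for ela2l, -0.15 for prss1 and -0.22 for prss59.1. Leaving out a library there gave -0.19 to 0.82 for ctrb.2, -0.06 to 0.81 for ela2, -0.32 to 0.56 for ela2l, -0.23 to 1.04 for ela3l, -0.16 to 0.42 for prss1, -0.33 to 0.42 for prss59.1 and -0.42 to 0.25 for prss59.2. The cause was not tested. Where leaving out a library left 1 in a group, that library was assumed to vary like the others. With 2 or 3 pools per group and controls spanning up to 14.5-fold, changes of a few fold may go undetected.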

Other observations

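Ratios between neighbouring copies lay outside the range of the other pools in some FBSA pools at 1 and 5 mg/L and inside it in others; these ratios were chosen after their values were seen and were not tested. The ratio of prss59.2 to prss59.1 in CPM was 2.19, 4.92 and 6.96 in FBSA 5 mg/L pools, against 2.22, 1.90 and 2.18 in the FBSA controls. It was 3.58, 2.49 and 2.03 at FBSA 1 mg/L, where replicate 2 had the lowest summed level of all pools, and 1.49 to 3.18 in the 38 pools outside FBSA 1 and 5 mg/L. The ratio of ctrb.1 to ctrb.2 was 3.58, 10.1 and 9.68 in FBSA 5 mg/L pools, against 1.46, 1.44 and 3.24 in the FBSA controls, and was 7.76, 16.0 and 2.79 at FBSA 1 mg/L. Outside FBSA 1 and 5 mg/L it ran from 0.86 to 6.04. The ratio of ela2l to ela2 was 1.78, 1.38 and 0.80 in FBSA 5 mg/L pools, against 1.47, 1.26 and 1.45 in the FBSA controls. Reads shared between the copies, and the low counts of ctrb.2, could affect these ratios, which was not tested.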
